A study of Mus musculus with 15 samples.

Results

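A set of 10 genes of oxysterol production and cholesterol efflux was examined by name, out of 32543 gene entries counted in each of 15 mouse tumors. They were Ch25h, Cyp27a1 and Cyp7b1, which make or break down oxysterols, Nr1h2 and Nr1h3, which encode the liver X receptors (LXRs), Abca1, Abcg1 and Apoe, which act in cholesterol efflux, Mylip, which encodes a ubiquitin ligase induced by LXRs, and Soat1, which esterifies cholesterol for storage. All 10 passed the filter on low counts, as did 15494 genes in all. WEHI-164, a mouse fibrosarcoma line of wild-type genotype, was grown under the skin of female BALB/c mice. Groups of 3 tumors were taken on day 0 without treatment, and 1, 3, 5 and 7 days after the first of daily injections of poly(I:C) into the tumor. This double-stranded RNA, made synthetically, is sensed by the receptor TLR3. The labels give 1 µg in 25 µL per injection and 6 planned injections. The study's methods for this experiment give the same dose, and a supplementary legend a higher one. By those methods the injections ran for up to 6 days, so day 7 came after the planned course. The mice were adults by the study's methods; their age is not in the labels, nor is the number of injections each tumor had received. The labels and methods describe the day 0 tumors as untreated, although legends speak of vehicle, and no tumor here is labelled as given vehicle, so injection, poly(I:C) and days of further tumor growth cannot be told apart. All comparisons with day 0 share the same 3 untreated tumors.

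Oxysterols are oxidised forms of cholesterol. Ch25h makes 25-hydroxycholesterol, is known as an interferon-stimulated gene in macrophages, and its product both activates LXRs and holds back the processing of SREBP2, the transcription factor of cholesterol synthesis. LXRs pair with RXRs and turn on the genes of efflux, so that macrophages and other cells loaded with cholesterol export it to apolipoproteins.

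Promoter sequences were taken from RefSeq (GRCm38.p6) to show what lies before the start of 3 of these genes: Ch25h, whose level parted from that of the others in 1 tumor, and Abca1 and Mylip, both LXR targets. The 250 bases before each start are printed 5′ to 3′ on the gene's strand, in lower case, with 2 kinds of match in capitals: TATAAA, and in Abca1 a 16-base stretch that differs at 3 of 12 fixed letters from the LXR-type repeat, which is 2 copies of AGGTCA set 4 bases apart, read on the opposite strand. Ch25h lies at chr19:34475149-34475398 (minus strand), Abca1 at chr4:53159896-53160145 (minus strand) and Mylip at chr13:45389492-45389741 (plus strand).
Ch25h: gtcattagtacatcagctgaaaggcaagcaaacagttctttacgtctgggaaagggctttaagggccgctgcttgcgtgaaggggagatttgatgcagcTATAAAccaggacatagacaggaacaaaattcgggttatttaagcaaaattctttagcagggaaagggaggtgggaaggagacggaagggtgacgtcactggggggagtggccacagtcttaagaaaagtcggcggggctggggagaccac
Abca1: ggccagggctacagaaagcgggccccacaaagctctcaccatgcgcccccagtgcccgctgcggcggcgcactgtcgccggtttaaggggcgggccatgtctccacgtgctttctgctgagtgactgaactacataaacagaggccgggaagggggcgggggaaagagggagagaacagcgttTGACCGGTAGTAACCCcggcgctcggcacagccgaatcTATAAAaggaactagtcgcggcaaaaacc
Mylip: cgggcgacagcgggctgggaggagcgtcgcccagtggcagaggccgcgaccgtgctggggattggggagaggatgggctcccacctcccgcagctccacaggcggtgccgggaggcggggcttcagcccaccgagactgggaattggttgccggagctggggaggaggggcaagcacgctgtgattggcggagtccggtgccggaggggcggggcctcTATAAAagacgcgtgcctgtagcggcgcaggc

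The table held promoters of 8 of the 10 genes, in 11 windows of 300 bases; Abcg1 and Cyp7b1 were not among them. A set of 8 motifs was searched on both strands. No window of the 8 genes held the interferon-response core (GAAA, any 2 bases, GAAA), which 3.44% of all 32851 promoters hold, or the STAT-type motif TTCNNNGAA, held by 8.3%. None held the exact LXR-type repeat (0.0152% of promoters), its single copy AGGTCA (16.3%), or the sterol response element TCACNCCAC (1.24%). TATAAA, held by 13.6% of promoters, was found in Ch25h, Abca1, Mylip and one Apoe window. A stretch within 3 mismatches of the repeat, as in Abca1, is found in 21.9% of promoters. These matches describe letters in a short window. The other 2 motifs were CCAAT, held by 37.4% of promoters, and the GC box GGGCGG, held by 35.7%. CCAAT was found in Cyp27a1, Mylip and Soat1, and the GC box in Abca1, Cyp27a1, Mylip and Soat1. Neither is marked in the printed sequences.

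The libraries held 23.7 to 31.9 megacounts of estimated counts. Levels are in CPM, the counts of a gene divided by its tumor's TMM-scaled total in megacounts. Day 3 replicate 1 stood apart: its mean correlation with the other tumors across genes was 0.884, against 0.956 to 0.976 for the other 14 tumors. It held a summed 3137 CPM of 8 skeletal muscle markers (2.88 to 178 CPM in the others), 309 CPM of adipocyte markers (9.99 to 64.4 CPM) and 6877 CPM of 12 macrophage markers (1093 to 3195 CPM). It was the highest of the 15 tumors for 8 of the 10 genes, and for 33.7% of all genes tested. It was the lowest for Ch25h, as it was for 36.6% of all genes. The log2 fold changes on day 3 are therefore also given without this tumor. T cell markers were highest there too, 9 of 9, with a summed 342 CPM (15.5 to 191 CPM in the others). The 8 mesenchymal markers were present in every tumor, with sums of 9341 to 14844 CPM in 14 tumors and 28834 CPM in day 3 replicate 1. Their presence does not test the label of a fibrosarcoma, as no other kind of tumor was sequenced here.

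**Figure D1:**
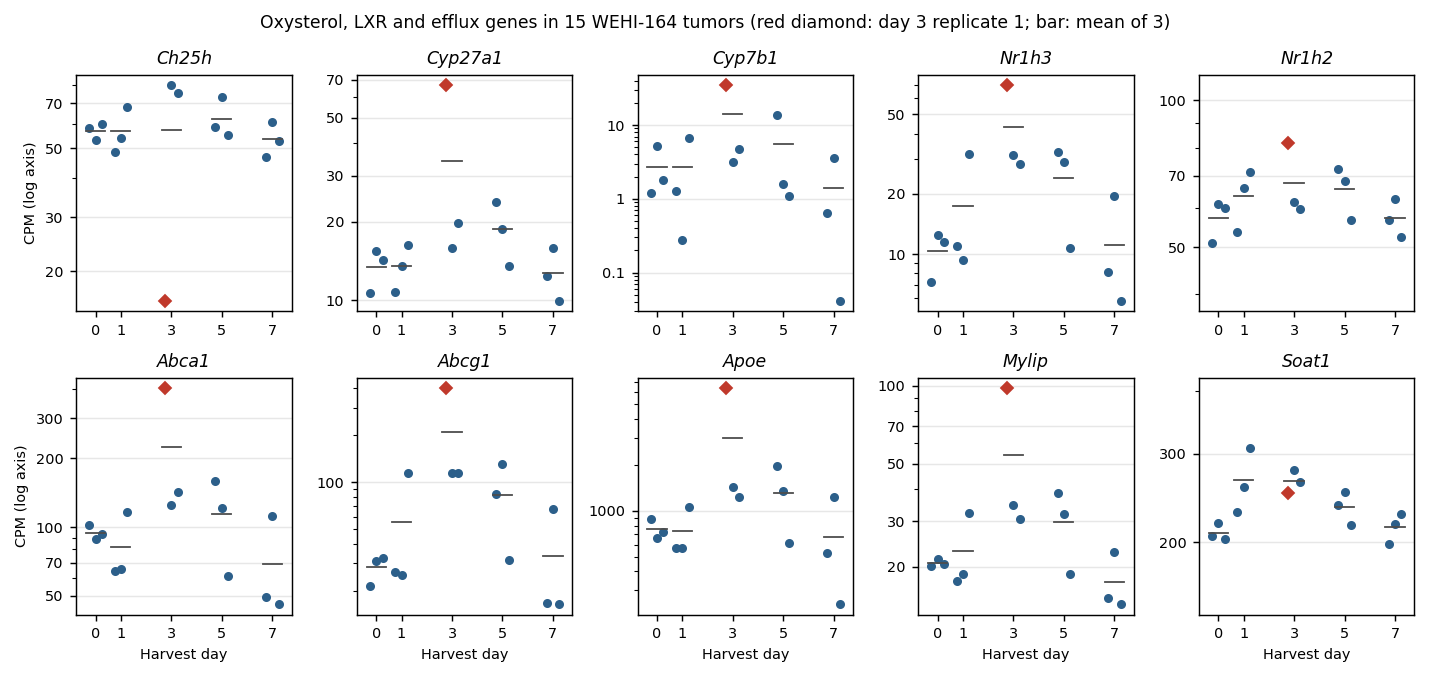
CPM of each of the 10 genes (log axes, which differ between panels) by harvest day; each point is 1 tumor, the short bar is the mean of the 3 tumors of that day and the red diamond is day 3 replicate 1. That tumor lies at the top of 8 panels and at the bottom for Ch25h, while Soat1 spans only 198 to 308 CPM.

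Ch25h (chr19:34473778-34475164, minus strand, a single exon) was measured at 58.1, 53.3 and 59.8 CPM in the untreated tumors and at 16.1, 80.0 and 75.6 CPM on day 3. The 2 highest tumors of the 15 and the lowest were thus all of day 3. On day 1 the values were 48.7, 53.9 and 68.2 CPM, on day 5 they were 58.6, 73.1 and 55.1 CPM, and on day 7 they were 46.8, 60.8 and 53.0 CPM, all between the extremes of day 3. The log2 fold change of day 3 against day 0 was 0.01 (SE 0.40, n = 3 per group, edgeR adjusted p = 0.993). Without day 3 replicate 1 it was 0.45 (DESeq2 adjusted p = 0.212), which passed neither edgeR's nor DESeq2's test.

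Cyp27a1 (chr1:74713574-74737892, plus strand), a mitochondrial enzyme that oxidises the cholesterol side chain, was measured at 10.6, 15.4 and 14.3 CPM on day 0. On day 3 it was at 66.6, 15.8 and 19.7 CPM, so that all 3 tumors lay above all untreated ones, replicate 2 by the least. Its log2 fold change of 1.34 (SE 0.45, edgeR adjusted p = 0.115) became 0.41 without replicate 1. Cyp7b1 (chr3:18071950-18243338, minus strand), which hydroxylates oxysterols on the way to their removal, was the least abundant of the 10, with 1 to 858 counts per tumor. It was measured at 1.21, 5.14 and 1.80 CPM on day 0, at 34.6, 3.13 and 4.67 CPM on day 3, and at 13.7 CPM in day 5 replicate 1. Its days overlapped in each comparison made, and its log2 fold change on day 3 was 2.37 (SE 1.43) with all tumors and 0.52 without day 3 replicate 1.

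The 2 receptor genes differed in how far their levels ranged. Nr1h3 (LXR alpha, chr2:91184061-91202834, minus strand) was at 7.22, 12.4 and 11.5 CPM on day 0 and at 69.8, 31.4 and 28.3 CPM on day 3. It was at 11, 9.33 and 31.7 CPM on day 1, at 32.5, 28.9 and 10.7 CPM on day 5 and at 8.10, 19.5 and 5.85 CPM on day 7. Its day 3 tumors lay above all untreated tumors and above all day 7 tumors, while days 1 and 5 each held tumors at both levels. Nr1h2 (LXR beta, chr7:44549616-44553951, minus strand) kept to 51.0 to 81.7 CPM over the 15 tumors, and its days overlapped in each comparison. The log2 difference Nr1h3 minus Nr1h2 within a tumor ran from -3.15 to -0.23. It was -2.81, -2.30 and -2.38 on day 0 and -0.23, -0.97 and -1.08 on day 3, so the gap in CPM was smallest on day 3. Nr1h2 had the higher CPM in every tumor, but CPM is not corrected for length. The merged exons are 3354 bases for Nr1h2 and 2515 for Nr1h3, so this does not rank the 2 genes by transcript number. The log2 fold change of Nr1h3 on day 3 was 2.06 (SE 0.61, edgeR adjusted p = 0.115), and 1.53 without replicate 1. That of Nr1h2 was 0.24 (SE 0.15, edgeR adjusted p = 0.268), and 0.09 without replicate 1.

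Abcg1 (chr17:31057675-31117988, plus strand), a transporter that moves cholesterol to lipoprotein particles, was at 21.4, 31.2 and 32.3 CPM on day 0. It was at 26.4, 25.2 and 115 CPM on day 1 and at 399, 114 and 115 CPM on day 3. On day 5 it was at 83.7, 131 and 31.6 CPM, and on day 7 at 16.6, 66.9 and 16.5 CPM. All day 3 tumors lay above all untreated tumors, 1 tumor of day 1 reached the day 3 range, and 2 of 3 tumors on day 7 lay below the untreated range. Its day 3 mean was 7.39 times the day 0 mean, or 4.04 times without replicate 1. The log2 fold change was 2.89 (SE 0.81, edgeR adjusted p = 0.115), and 2.02 without replicate 1 (DESeq2 adjusted p = 0.252).

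Abca1 (chr4:53030787-53159895, minus strand), which loads cholesterol onto lipid-poor apolipoproteins, was at 102, 88.8 and 93.3 CPM on day 0 and at 404, 125 and 142 CPM on day 3. It was at 64.0, 65.5 and 116 CPM on day 1, at 159, 121 and 61.1 CPM on day 5, and at 49.4, 112 and 46.2 CPM on day 7. The log2 fold change on day 3 was 1.24 (SE 0.49), and 0.50 without replicate 1. Apoe (chr7:19696109-19699188, minus strand), which encodes an apolipoprotein that takes up exported cholesterol, was at 883, 660 and 731 CPM on day 0 and at 6361, 1425 and 1231 CPM on day 3. Its lowest tumor was day 7 replicate 3, at 245 CPM. The log2 fold change on day 3 was 1.99 (SE 0.69), and 0.81 without replicate 1. For both genes the day 3 tumors lay above all untreated ones, and neither passed edgeR's adjusted threshold.

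Mylip (chr13:45389742-45412022, plus strand) was at 20.2, 21.4 and 20.5 CPM on day 0, at 97.8, 34.7 and 30.5 CPM on day 3 and at 15.1, 22.9 and 14.4 CPM on day 7. Its untreated tumors were close together (20.7 ± 0.626 CPM, SD, n = 3), and all day 3 tumors were above them. The log2 fold change on day 3 was 1.39 (SE 0.42), and 0.66 without replicate 1. Soat1 (chr1:156424525-156474331, minus strand) was at 206, 218 and 203 CPM on day 0, at 230, 258 and 308 CPM on day 1 and at 250, 279 and 264 CPM on day 3. On day 5 it was at 237, 252 and 216 CPM and on day 7 at 198, 217 and 227 CPM. It was the only one of the 10 whose tumors on day 1 all lay above the untreated ones, and its day 3 difference did not rest on replicate 1: the log2 fold change was 0.34 (SE 0.11) with it and 0.38 without it. On day 1 it was 0.35 (SE 0.11, edgeR adjusted p = 1).

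None of the 10 genes passed edgeR's quasi-likelihood test at an adjusted p of 0.05 in any of the comparisons, and neither did any of the 15494 genes (0% called in each). On day 3 against day 0 the 3 treated tumors lay above the 3 untreated for 7 of the 10 genes (Abca1, Abcg1, Nr1h3, Apoe, Cyp27a1, Mylip and Soat1), against 19.4% of all genes. The same 7 had an unadjusted edgeR p under 0.05, as did 18.3% of all genes in that direction and 30% in either. DESeq2 called 6 of them, all but Abca1, and 12.9% of all genes (9.02% higher). Limma's voom with quality weights, which gave day 3 replicate 1 a weight of 0.07195 against 0.3141 to 4.208 for the others, called Abcg1, Nr1h3 and Soat1, and 4.66% of all genes as higher. With DESeq2 and without day 3 replicate 1, none of the 10 was called (0.553% of all genes). Over the 10 genes the day 3 median was 1.37 (log2 fold change), and 0.51 without replicate 1, beside -0.02 over all genes.

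**Figure D2:**
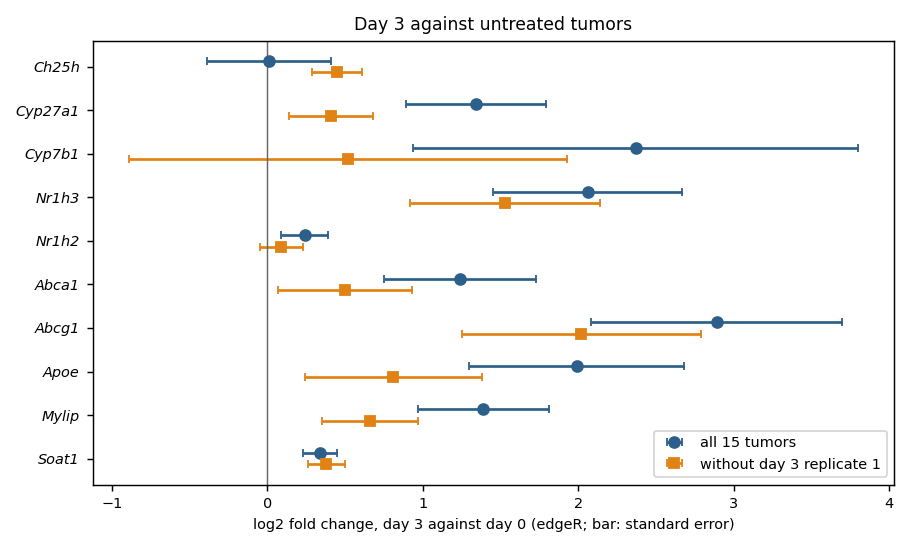
Log2 fold change of each gene on day 3 against day 0 from edgeR, with its standard error, in all 15 tumors (blue circles) and without day 3 replicate 1 (orange squares). Abcg1 and Nr1h3 stay at 2.02 and 1.53 without that tumor, Soat1 hardly moves (0.34 and 0.38), and Ch25h goes from 0.01 to 0.45.

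Day 7 came after the planned injections, and day 3 during them. On day 7 against day 3, the 3 later tumors lay below the 3 day 3 tumors for 5 of the 10 genes (Abca1, Abcg1, Nr1h3, Mylip and Soat1), against 18.4% of all genes. The median log2 fold change was -1.66, and -0.91 without day 3 replicate 1, beside 0.02 over all genes. It was -2.65 for Abcg1 (SE 0.80), -1.95 for Nr1h3 (SE 0.60) and -1.64 for Mylip (SE 0.43), each with an edgeR adjusted p of 0.0832. When day 3 replicate 3 was left out, edgeR called 6 of the 10 as lower (Abca1, Abcg1, Nr1h3, Apoe, Cyp27a1 and Mylip, each with an adjusted p of 0.0493). It then called 2104 genes in either direction, where 15494 were tested with all tumors, and the share called lower was not computed. That fit had 1 tumor fewer on day 3 and kept day 3 replicate 1, the tumor that stood apart. DESeq2 called 8 of the 10 as lower, all but Ch25h and Nr1h2, and 15.1% of all genes as lower; without day 3 replicate 1 it called none of the 10 (0.605% of all genes), with no adjusted p given for Nr1h3, Cyp27a1, Cyp7b1 and Mylip. On day 1 the only gene with an unadjusted edgeR p under 0.05 was Soat1 (2.18% of all genes were higher by that measure), and 5.76% of all genes were without overlap and higher, as Soat1 was. The median over the 10 genes was 0.50 on day 5 and -0.08 on day 7 against day 0 (log2 fold change). Voom with quality weights called Abcg1, Nr1h3, Mylip and Soat1 as higher on day 5 (7.11% of all genes); edgeR and DESeq2 called none of the 10 on that day, and DESeq2 called 0.071% of all genes.

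In bulk tumor RNA, more cells of a type and more RNA per cell cannot be told apart. Macrophage and T cell markers were highest in the same tumor as the efflux genes. The mean log2 CPM of 12 markers was 5.42, 5.69 and 5.36 on day 0, 7.50, 6.05 and 6.36 on day 3, and 5.25, 5.99 and 4.73 on day 7. The marker Adgre1 (F4/80) was at 65.2, 96.8 and 78.8 CPM on day 0 and at 467, 192 and 247 CPM on day 3. For 9 of the 12 markers the day 3 tumors lay above all untreated ones (19.4% of all genes). Not all markers rose: the mean of Mrc1 went from 47.2 to 36.1 CPM per kb of exon, and to 25.2 without day 3 replicate 1. That of Cd163 went from 4.42 to 6.49 CPM per kb, but to 3.5 without that tumor. Abca1 stood 0.34 to 1.29 log2 units above the macrophage level in all 15 tumors, a range of 0.95 where Abca1 itself ranged over 3.13 (1.78 without day 3 replicate 1). Mylip kept to the macrophage level within a range of 0.73 and Cyp27a1 within 0.81, against their own ranges of 2.76 and 2.73 (1.42 and 1.25 without day 3 replicate 1). The 3 ranges relative to the macrophage level were the same without that tumor. Abcg1 kept less close: it was -1.0, -0.72 and -0.35 relative to the macrophage level on day 0, and 1.14, 0.78 and 0.48 on day 3, with no overlap. Nr1h3 was at -2.56, -2.05 and -1.83 on day 0 and at -1.37, -1.07 and -1.54 on day 3, again with no overlap. Nr1h2 and Soat1 had no overlap in the other direction. The macrophage level itself had no overlap between these days, while Nr1h2 and Soat1 ranged over only 0.68 and 0.64 log2 units in the 15 tumors. A gene that varies so little lies lower relative to a level that rises, so this is not a result about these 2 genes. Nr1h2 was at 0.25, 0.25 and 0.55 on day 0 and at -1.14, -0.10 and -0.46 on day 3. Soat1 was at 2.26, 2.08 and 2.30 on day 0 and at 0.47, 2.07 and 1.69 on day 3. The share of all genes without overlap on this scale was not computed. Marco was at 0 counts in 2 tumors and Vsig4 in 1. Over the 10 markers detected in every tumor, a choice made after seeing the data, the ranges were 0.89 for Abca1, 0.71 for Mylip and 0.76 for Cyp27a1. Abcg1 and Nr1h3 (higher on day 3) and Nr1h2 and Soat1 (lower) again had no overlap between days 0 and 3. For Nr1h2 and Soat1 the limit given above holds here too. For all 9 T cell markers the day 3 tumors lay above all untreated tumors (19.4% of all genes) and above all day 7 tumors (18.4%), and their day 3 median was 2.03 (log2 fold change), or 1.36 without replicate 1. The part of macrophage or T cell number in these differences was not tested.

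**Figure D3:**
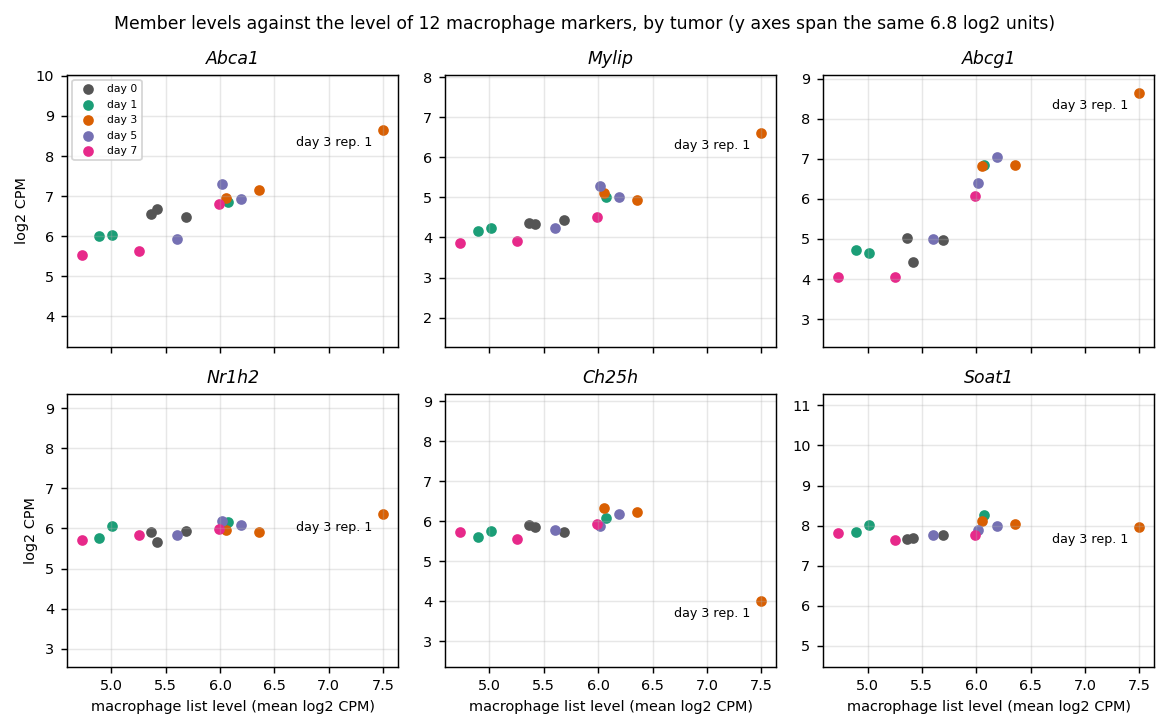
Log2 CPM of 6 of the genes against the mean log2 CPM of 12 macrophage markers; each point is 1 tumor, coloured by harvest day, and the y axes all span the same width. Abca1, Mylip and Abcg1 are higher where the macrophage level is higher, Nr1h2 and Soat1 vary little, and Ch25h lies at 4.02 in day 3 replicate 1 against 5.55 to 6.32 in the other 14 tumors.

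Ch25h did not share this. It was -3.48 relative to the macrophage level in day 3 replicate 1 and -0.15 to 1.00 in the other 14 tumors. As a description over 15 tumors that share their libraries and makeup, the log2 levels of Abca1, Abcg1, Nr1h3, Apoe, Cyp27a1, Cyp7b1 and Mylip correlated with each other at Pearson's r of 0.80 to 0.98 (Spearman's rho 0.77 to 0.96; r of 0.71 to 0.98 without day 3 replicate 1). Ch25h correlated with these 7 at r of -0.64 to -0.23 (rho 0.27 to 0.52), and at r of 0.47 to 0.88 when that tumor was left out, so the sign turned without it. The log2 difference Abca1 minus Ch25h was 4.64 in day 3 replicate 1 and -0.20 to 1.44 elsewhere.

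Over all genes tested, those most like each of the 10 across the 15 tumors (Pearson's r of log2 CPM) differed between them. Soat1 was most like Xaf1 (r = 0.953, rho = 0.943) and Herc6 (r = 0.947, rho = 0.911), both known interferon-stimulated genes, and CSPRS (r = 0.943). Its highest tumor, day 1 replicate 3, was also the highest for the mean level of 14 interferon-response genes, at a log2 CPM of 8.09. Abcg1 was most like Cndp2 (r = 0.988), Pltp (r = 0.986), an LXR target that transfers phospholipid, and Pirb (r = 0.984), a receptor of myeloid cells. Mylip was most like Eepd1 (r = 0.990), a known LXR target, Rps6ka1 (r = 0.990) and Grb2 (r = 0.986). Nr1h3 was most like Itpkb (r = 0.989), Tmem51 and Vav1 (both r = 0.987). Abca1 was most like Smim24 (r = 0.987), Nfatc1 (r = 0.983) and Stard8 (r = 0.981). Apoe was most like Tnfrsf13b and Man1a (both r = 0.983) and Rcsd1 (r = 0.979), and Cyp27a1 was most like Pip4k2a, Hsd17b11 and Wdr41 (each r = 0.981). Cyp7b1 was most like Gpc3 (r = 0.986), Cpxm1 (r = 0.982) and Gpx3 (r = 0.979), and Nr1h2 was most like Sharpin (r = 0.960), Dnaaf3 (r = 0.950) and Dexi (r = 0.948). Ch25h was most like Kcnn4 (r = 0.972, and 0.837 without day 3 replicate 1), Mrps2 and Mrps18b (both r = 0.963), the latter pair encoding mitochondrial ribosome proteins.

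Levels between genes were set side by side per kilobase of merged exon in the untreated tumors. This length merges the exons of all annotated transcripts, not only those expressed here, and the order of genes can depend on it. Apoe was far the most abundant, at 355 ± 53.3 CPM per kb (SD, n = 3), followed by Ch25h at 41.1 ± 2.44, Soat1 at 21.3 ± 0.775, Nr1h2 at 17.1 ± 1.67 and Abca1 at 9.15 ± 0.656 CPM per kb. Mylip (6.40 ± 0.194), Cyp27a1 (6.17 ± 1.14), Nr1h3 (4.12 ± 1.10) and Abcg1 (3.88 ± 0.822) came next, and Cyp7b1 was lowest at 1.25 ± 0.977 CPM per kb. The tumors of Mylip and Cyp27a1 overlapped, as did those of Cyp27a1 and Nr1h3 and those of Nr1h3 and Abcg1; the other neighbours in this order did not overlap. On day 3 the mean of Abcg1 (28.7 CPM per kb) was above that of Abca1 (21.6 CPM per kb), the reverse of day 0. Without replicate 1 these means were 15.7 and 12.9 CPM per kb.

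The other genes of the pathway were read from lists chosen by function. None of these genes passed edgeR's adjusted test. Of 16 other LXR targets, 14 were tested; 6 had an unadjusted p under 0.05 and were higher on day 3 (18.3% of all genes) and 3 were lower (11.7%), and DESeq2 called 4 higher (9.02% of all genes) and 1 lower (3.91%). The day 3 tumors lay above all untreated ones for 4 of the 14 (19.4% of all genes) and below them for 4 (19%). In fitted value 9 were higher and 5 lower. Their median log2 fold change was 0.66, and 0.36 without day 3 replicate 1. Mertk, a receptor for the engulfment of dying cells, was at 20.3, 23.7 and 19.7 CPM on day 0 and at 113, 36.2 and 51.6 CPM on day 3. Smpdl3a, a lysosomal phosphodiesterase, was at 14.8, 21.7 and 14.9 CPM on day 0 and at 124, 49.4 and 45.0 CPM on day 3. The day 3 tumors were above the untreated for both. Apoc1, an apolipoprotein, was near the detection limit, at 0.202 to 0.596 CPM on day 0 and 0.311 to 4.07 CPM on day 3. Srebf1, the LXR-driven regulator of fatty acid synthesis, had a log2 fold change of -0.16 (SE 0.08, and -0.13 without day 3 replicate 1), and Lpcat3, a phospholipid remodelling enzyme, of 0.33 (SE 0.15, and 0.15 without it).

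Of 15 targets of SREBP2, the genes of cholesterol synthesis and uptake, all were tested and 14 had a negative log2 fold change on day 3. Of these, 13 had an unadjusted edgeR p under 0.05 and were lower, against 11.7% of all genes, and 13 had day 3 tumors all below the untreated ones, against 19% of all genes. DESeq2 called 11 as lower (3.91% of all genes), among them Srebf2 and Idi1, which it did not call without day 3 replicate 1 (adjusted p = 0.0640 and 0.107). The median log2 fold change was -1.01, and -0.92 without day 3 replicate 1. Srebf2 itself was at 213, 201 and 188 CPM on day 0 and at 79.8, 132 and 115 CPM on day 3. Idi1, an isomerase of the pathway, had a log2 fold change of -1.56 (SE 0.42), and -1.45 without day 3 replicate 1. On day 7 against day 3 the median was 1.24 and DESeq2 called 12 of the 15 as higher (5.96% of all genes).

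**Figure D4:**
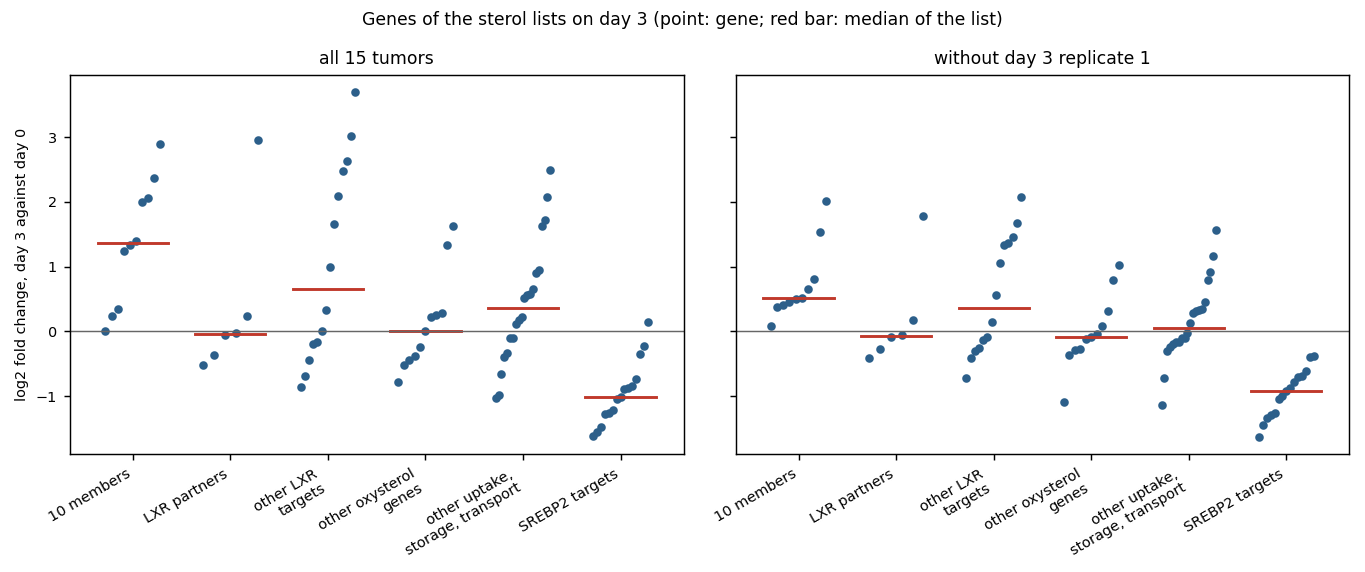
Log2 fold change on day 3 against day 0 for each tested gene (points) of the 10 genes and 5 other sterol lists, with the median of each list (red bar), in all 15 tumors and without day 3 replicate 1. The median of the 10 genes goes from 1.37 to 0.51 when that tumor is left out, and that of the SREBP2 targets from -1.01 to -0.92.

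Of 13 other oxysterol enzymes and receptors, 11 were tested; 6 were higher and 5 lower on day 3 in fitted value, with a median of 0.01 (log2 fold change), and -0.08 without day 3 replicate 1. The days did not overlap for 2 of the 11 that were higher (19.4% of all genes) and 2 that were lower (19%), which is near the share over all genes. Hsd3b7, which acts on oxysterols after hydroxylation, had a log2 fold change of 0.29 (SE 0.22, and 0.08 without day 3 replicate 1) and Gpr183, the receptor that draws immune cells to oxysterols, of 0.26 (SE 0.28, and -0.08 without that tumor). Insig1, which holds SREBP2 in place when sterols are plentiful, was at -0.79 (SE 0.41, and -1.09 without that tumor) and Insig2 at -0.44 (SE 0.17, and -0.28). Cyp11a1, of steroid hormone synthesis, was at 1.63 (SE 0.72), and at 0.80 without that tumor. Of the genes of cholesterol uptake, storage and transport, 20 of 22 were tested and the median was 0.37, and 0.05 without that tumor. Among them Lipa, the lysosomal acid lipase, was at 63.5, 83.9 and 68.6 CPM on day 0 and at 444, 132 and 139 CPM on day 3, all above the untreated tumors. Gramd1b, a sterol transfer protein, had a log2 fold change of 0.90 (SE 0.25, and 0.46 without that tumor), and that of Vldlr went from 2.08 to -0.16 without day 3 replicate 1. The 7 listed LXR partners, of which 6 were tested, had a median of -0.04, and -0.07 without that tumor. Rxra, the partner receptor, was at 0.24 (SE 0.11, and 0.17 without it), the co-repressor gene Ncor1 at -0.52 (SE 0.18, and -0.41) and Pparg at 2.95 (SE 0.87, and 1.78 without that tumor). Irf7, an interferon-stimulated gene used as a mark of the treatment, was at 60.4, 97.1 and 85.2 CPM on day 0, at 221, 173 and 815 CPM on day 1, at 560.0, 579 and 359 CPM on day 3, at 163, 246 and 136 CPM on day 5 and at 81.2, 125 and 75.7 CPM on day 7.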

How the data were processed

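RNA from 15 tumors was sequenced after poly(A) selection as 100-base single-end reads. Per the labels and the study's methods, the authors quantified reads with kallisto against the mouse transcriptome (GRCm38) and summarised them to genes with tximport; the deposited values are estimated counts in whole numbers, not normalized. The transcript set and use of strand are not given in the sources used here. One of 32544 entries, a symbol turned into a date (at most 0.0268% of a tumor's counts), was left out. Tumors were grouped by the harvest day in the labels.

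Genes above 0.366 CPM in at least 3 tumors were kept. The main test was edgeR 4.0.16 (quasi-likelihood, TMM scaling, all 15 tumors, harvest day as the only term, Benjamini-Hochberg adjustment over all genes tested) in R 4.3.3; all p-values in the text come from the named tools. DESeq2 1.42.0 and limma 3.58.1 (voom with quality weights) were alternatives, with other scaling factors, no filter, robust dispersion, only the days compared, a replicate block and leaving out each tumor. DESeq2 without day 3 replicate 1 was added after the data were seen. The scripts were tested on simulated data. Total counts were 23.7 to 31.9 megacounts per tumor; a floor of 3 counts is 0.094 to 0.127 CPM and covers counting error only. No replicate pair agreed within sampling noise. Replicates were tumors of separate mice by the study's legends, which the labels do not state. Same-numbered replicates did not deviate together. The named genes were all 10 genes, the called genes of each of 5 pathway lists or, failing those, the 3 with the smallest joint edgeR p, and 10 further genes (3 of all these are not reported here); for each of the 10, the 3 most correlated genes. The genes and lists were chosen with earlier results of these data known. Positions are from GENCODE M21, and 31401 entries matched its symbols.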

Additional observations from a re-analysis of the deposited data

Results flagged for a closer look

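Among the named genes, 4 genes of the sterol lists lay on both sides of the untreated mean. For each, all 3 tumors of one day were above that mean and all 3 of another day below it. These are not a scan of the whole lists, and the share of all genes that meet this rule was not computed. Relative to day 0, Insig2 was at 0.10 (log2) on day 1 and at -0.44 on day 3, and Gpr183 at -0.34 on day 1 and at 0.23 on day 5; the difference between those days was not tested. Hsd3b7 was at 0.29 on day 3 and at -0.31 on day 7, and edgeR's test of day 7 against day 3 gave an adjusted p of 0.0950. Srebf1 was at -0.16 on day 3 and at 0.09 on day 7, with an adjusted p of 0.0845 in the same test. None passed the threshold of 0.05. With 3 tumors a day, no test for an outlying value of a single gene was run within a day.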

How the results depend on the processing

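Over 1150 comparisons of a log2 fold change of the 10 genes with an alternative setting, 1066 kept their direction and their side of the threshold, 29 came to pass it and 55 turned direction. The numbers of all genes called by DESeq2 were 40, 2003, 11 and 5 on days 1, 3, 5 and 7 against day 0, 3260 on day 7 against day 3 and 1176 in the joint test of the 4 treated days, where edgeR called 0; of the 10 genes it called 6 on day 3, 8 on day 7 against day 3 and 7 in the joint test. At an unadjusted p under 0.05 edgeR had 489, 4654, 744 and 320 genes on days 1, 3, 5 and 7. Voom with quality weights called 1186 genes on day 3, 2458 on day 5, 529 on day 7 against day 3 and 3864 in the joint test, with 3, 4, 2 and 7 of the 10 genes. DESeq2 without day 3 replicate 1, chosen after seeing the data, called 71, 85, 18, 16, 93 and 181 genes in the same order of 6 comparisons, and none of the 10. On day 7 against day 3 it gave no adjusted p for Nr1h3, Cyp27a1, Cyp7b1 and Mylip, which could therefore not be called. Genes without an adjusted p count as not called in the DESeq2 shares. With only the 2 days compared, 1 gene was called on day 5 and 1 on day 7. Voom turned the direction of Abcg1 (-0.05), Cyp27a1 (-0.12), Cyp7b1 (-1.98) and Mylip (-0.11) on day 1, of Cyp7b1 (-0.23) on day 5, and of Abcg1 (-0.34) and Nr1h3 (-0.31) on day 7. Nr1h2 on day 7 turned to 0.01 with RLE factors, DESeq2 (with and without day 3 replicate 1) and only 2 days, and to 0.002 without the filter, under which Ch25h on day 1 turned to 0.0012. The replicate numbers did not pair the tumors (same-number deviations correlated at -0.62 to 0.51, 9 of 30 above 0.1); with the replicate block 0 genes were called, and Apoe on day 1 turned to 0.08, Ch25h on day 3 to -0.13 and Ch25h on day 7 against day 3 to 0.01. Leaving out 1 tumor at a time, edgeR called 0 to 61 genes on day 3 (61 without day 1 replicate 3, 2 without day 3 replicate 3) and 0 to 2104 on day 7 against day 3 (2104 without day 3 replicate 3, 58 without day 1 replicate 3, 1 without day 7 replicate 2), with 0 to 6 of the 10 genes; the 6, Abca1, Abcg1, Nr1h3, Apoe, Cyp27a1 and Mylip, were called without day 3 replicate 3 at an adjusted p of 0.0493. Some log2 fold changes turned direction. For day 1 against day 0 the range was Abcg1 -0.13 to 1.32, Apoe -0.41 to 0.10, Ch25h -0.15 to 0.10, Cyp27a1 -0.15 to 0.15, Cyp7b1 -1.78 to 0.86, Mylip -0.18 to 0.30 and Nr1h3 -0.02 to 1.04. For day 3 against day 0 the range was Ch25h -0.31 to 0.45. For day 5 against day 0 the range was Abca1 -0.06 to 0.56, Ch25h -0.0047 to 0.21 and Cyp7b1 -1.02 to 1.86. For day 7 against day 0 the range was Abcg1 -0.77 to 0.56, Apoe -0.97 to 0.22, Cyp27a1 -0.26 to 0.08, Nr1h2 -0.08 to 0.06, Nr1h3 -0.57 to 0.41 and Soat1 -0.01 to 0.08. For day 7 against day 3 the range was Ch25h -0.53 to 0.23. The cause of these changes was not tested. With 3 tumors a day and 1 to 858 counts of Cyp7b1 per tumor, its values are the least precise of the 10.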
